A study of Caenorhabditis elegans with 9 samples.

Results

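Whole Caenorhabditis elegans kept under a condition labelled as a high fat diet (HFD), which the study's title describes as induced by citrate, were compared with control animals (OP), with 3 RNA-seq libraries in each group. The comparison covers the 14268 genes with a gene name and an FPKM (fragments scaled to gene length and library size) of at least 1 in at least 3 of these 6 libraries, out of 46986 genes in the table and 6 of its 9 libraries. The table names its control columns OP50, which is also a bacterial strain commonly fed to laboratory worms; the replicate number links them to the OP samples. Worm strain, sex, age, the dose of citrate and the length of exposure are missing from the labels, so a change of diet and a change of developmental stage or age between the groups cannot be told apart. The labels do not state whether a group's libraries are separate cultures, and p-values reflect their spread, possibly technical.

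The worm stores fat mainly in its intestine and epidermis. In adult hermaphrodites the intestine also makes vitellogenins, the yolk lipoproteins that carry lipid to the oocytes. Fatty acids are shortened in mitochondria and in peroxisomes, and desaturases and elongases set their chain and saturation. The cuticle, the collagen coat around the animal, is rebuilt at each moult from a set of collagens that differs between stages. The germ line of a hermaphrodite makes sperm first and oocytes later, and both hold transcripts found in no other tissue.

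The genes that rose in high-fat worms included lipid-binding, glutathione S-transferase and short-chain dehydrogenase genes, and those that fell the genes of yolk proteins, a large group of cuticle collagens, eggshell, oocyte and sperm proteins and the small heat shock proteins. In all, 1659 genes (11.6% of those tested) differed at an adjusted p under 0.05, in limma's moderated test on log2(FPKM + 1) with Benjamini-Hochberg adjustment. Of these, 541 genes (3.79%) rose and 1118 (7.84%) fell in HFD. A difference of at least 2-fold was seen in 260 risen and 414 fallen genes, together 4.72% of the genes tested, and one of at least 8-fold in 18 risen and 43 fallen genes. The median log2 fold change of all genes tested was 0.01, with 7349 positive and 6919 negative values. The HFD and OP libraries did not overlap in any called gene and in 29.9% of all genes tested. The 12 largest changes in each direction, given below, were picked among genes without overlap, so non-overlap in them is no added support. The risen genes had a median level of 26.8 FPKM in HFD and 11.8 FPKM in OP, whereas fallen genes had a median of 6.96 FPKM in HFD and 14.3 FPKM in OP, and all tested genes 10.8 FPKM in HFD and 11.3 FPKM in OP.

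The libraries held 17808607 to 20373021 reads in HFD and 20165268 to 21419867 in OP. Their FPKM summed to 877710 to 978157 in HFD, highest in HFD replicate 1, and to 861772 to 884638 in OP. Summed levels given below were not corrected for this. The first principal component, with 59.2% of the variance, placed the HFD libraries between 24.7 and 40.4 and the OP libraries between -36.6 and -23.7. The second component, with 14.4% of the variance, ran across both groups and ordered the replicate numbers alike in each. It placed HFD replicates 1, 2 and 3 at 20.1, -0.96 and -21.0, and OP replicates 1, 2 and 3 at 19.2, 0.48 and -17.8. Among the genes that fell, OP replicate 1 was the OP library nearest to HFD in 763 of 1118. Leaving out OP replicate 2 left 682 calls, leaving out HFD replicate 2 left 984 and leaving out OP replicate 3 left 1057, while the other libraries left 1395 to 1724. With each of the 6 libraries left out in turn, 646 genes passed every time, 226 that rose and 420 that fell. For genes named below that are not among these, the libraries on which the call depends are given in the same paragraph.

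**Figure D1:**
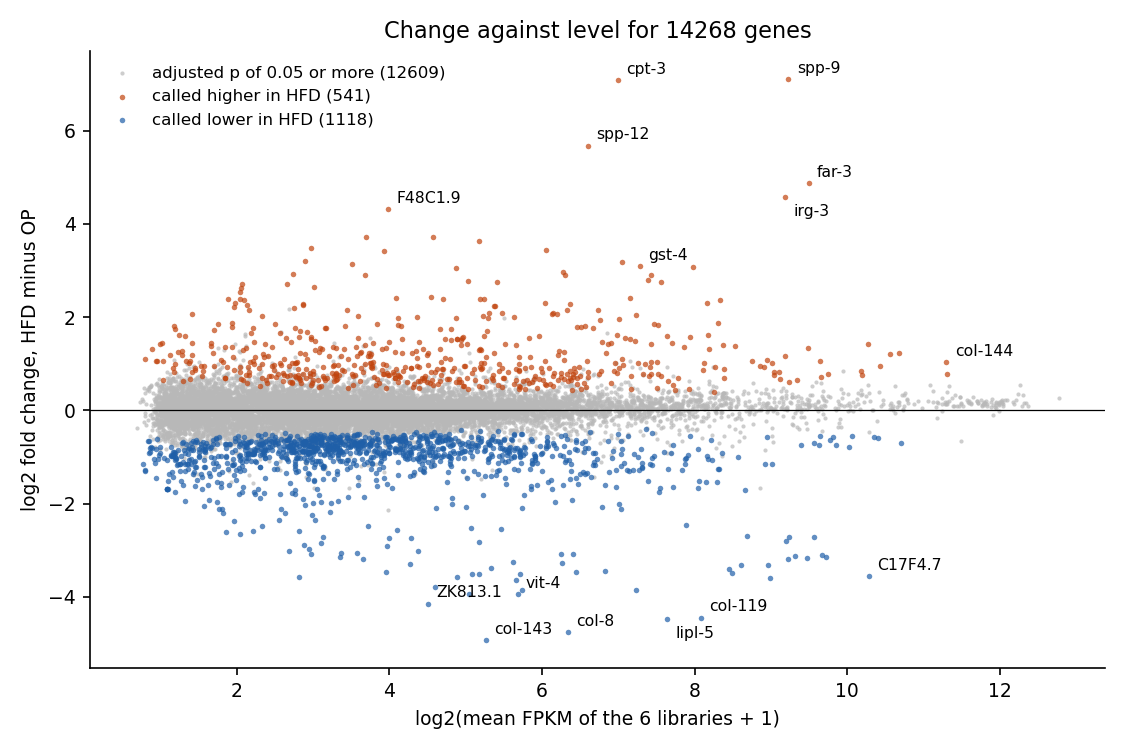
Log2 fold change (HFD minus OP) of each tested gene against its mean expression, log2(FPKM + 1), over the 6 libraries; risen and fallen genes are coloured and the others grey. The changes run from -4.92 in col-143 to 7.11 in spp-9, and the 1118 fallen genes are more numerous than the 541 risen ones.

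A saposin-like gene and a carnitine palmitoyltransferase gene led the increases. spp-9 (WBGene00004994, chromosome X, 11487784 to 11488203), a member of the saposin-like family of small lipid-interacting proteins, had 772, 957 and 1844 FPKM in the HFD libraries, against 4.26, 8.08 and 9.81 FPKM in the OP libraries. cpt-3 (WBGene00021703, chromosome III, 2082819 to 2088314), which belongs to the carnitine palmitoyltransferases that carry long-chain fatty acids into mitochondria, had 171, 178 and 406 FPKM in the HFD libraries, against 0.893, 0.658 and 0.602 FPKM in the OP libraries. In both genes the HFD libraries differed by more than 2-fold among themselves, and the lowest of them was far above every OP library. The log2 fold change was 7.11 (SE 0.35, adjusted p = 6.88e-05) for spp-9 and 7.08 (SE 0.30, adjusted p = 6.03e-05) for cpt-3. Of the 6 cpt genes tested, a group looked at after the value of cpt-3 was seen, cpt-5, cpt-6 and cpt-2 rose as well (2.39, 1.31 and 0.93), and cpt-1 and cpt-4 did not pass (0.78 and -0.49, adjusted p = 0.081 and 0.241). The third gene, spp-12 (WBGene00004997, chromosome V, 13889816 to 13890327), again saposin-like, had 88.5, 136 and 344 FPKM in the HFD libraries, against 1.002, 2.75 and 3.19 FPKM in the OP libraries. The fourth, far-3 (WBGene00001387, chromosome V, 12996787 to 12997522), a secreted fatty acid and retinol binding protein, had 658, 2060.0 and 1482 FPKM in the HFD libraries, against 50.3, 40.7 and 36.4 FPKM in the OP libraries. HFD replicate 1 was the lowest HFD library in both, and neither gene overlapped between the groups (log2 fold change 5.68, SE 0.47, adjusted p = 0.000549 for spp-12; log2 fold change 4.87, SE 0.36, adjusted p = 0.000348 for far-3). The call of cpt-6 ended with HFD replicate 2 or 3 or OP replicate 2 or 3 left out (highest adjusted p 0.0904).

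Pathogen-response and detoxification genes made up much of the rest of the 12 largest increases. irg-3 (WBGene00018760, chromosome V, 2592591 to 2595062), named for its induction by infection, had 776, 1123 and 1453 FPKM in the HFD libraries, against 59.1, 42.6 and 35.3 FPKM in the OP libraries (log2 fold change 4.57, SE 0.25, adjusted p = 9.17e-05). clec-3 (WBGene00016577, chromosome II, 3017468 to 3019907), a C-type lectin, had 15.8, 28 and 36.6 FPKM in the HFD libraries, against 2.23, 1.44 and 0.93 FPKM in the OP libraries (log2 fold change 3.41, SE 0.30, adjusted p = 0.000739). The conjugating enzyme gene ugt-35 (WBGene00044286, chromosome V, 10651995 to 10654265) had 4.04, 53.2 and 13.5 FPKM in the HFD libraries, against 0.407, 0.184 and 0.0561 FPKM in the OP libraries. The cytochrome P450 gene cyp-13B1 (WBGene00008519, chromosome X, 13406674 to 13409643) had 32.1, 259 and 78.4 FPKM in the HFD libraries, against 8.41, 8.7 and 4.84 FPKM in the OP libraries. None of these overlapped between the groups, and HFD replicate 2 was the highest library for ugt-35 and cyp-13B1, with log2 fold changes of 3.71 for ugt-35 and 3.44 for cyp-13B1 (adjusted p = 0.011 and 0.00964). The remaining places went to genes known by sequence name. F48C1.9 (WBGene00018601, chromosome I, 5332249 to 5332780) had 7.18, 58.8 and 22.8 FPKM in the HFD libraries, against 0, 0.152 and 0.279 FPKM in the OP libraries, so that it was close to absent in OP and varied widely in HFD. R05H10.1 (WBGene00011042, chromosome II, 14851816 to 14853627) had 40.7, 88.3 and 69.1 FPKM in the HFD libraries, against 4.05, 3.69 and 4.78 FPKM in the OP libraries. The neighbours F49C12.4 (WBGene00009874, chromosome IV, 9302655 to 9304094) and F49C12.2 (WBGene00009872, chromosome IV, 9297969 to 9299245), with a methyltransferase domain per the table, averaged 13.6 ± 7.6 FPKM in HFD and 0.19 ± 0.088 FPKM in OP, and 12.5 ± 8.05 FPKM in HFD and 0.322 ± 0.219 FPKM in OP (SD, n = 3 each). Log2 fold changes of F48C1.9, R05H10.1, F49C12.4 and F49C12.2 were 4.32, 3.63, 3.49 and 3.21, with adjusted p of 0.00304, 0.000265, 0.000894 and 0.00139 in the same order.

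Cuticle collagens and yolk genes led the decreases. col-143 (WBGene00000716, chromosome V, 6835635 to 6836704) had 2.11, 1.49 and 0.8004 FPKM in the HFD libraries, against 55, 89.1 and 75.9 FPKM in the OP libraries. The gene col-8 (WBGene00000597, chromosome III, 7019583 to 7020600) had 7.65, 4.24 and 2.97 FPKM in the HFD libraries, against 115, 166 and 185 FPKM in the OP libraries. The gene col-119 (WBGene00000693, chromosome IV, 8978926 to 8979795) had 58, 11.9 and 15.7 FPKM in the HFD libraries, against 429.6, 585 and 522 FPKM in the OP libraries. In each of these collagens every HFD library was below every OP library (log2 fold change -4.92, SE 0.24, adjusted p = 6.88e-05 for col-143; -4.76 and adjusted p = 9.17e-05 for col-8; -4.45 and adjusted p = 0.0013 for col-119). The fourth collagen, col-20 (WBGene00000609, chromosome II, 4869670 to 4870791), averaged 85.2 ± 54.9 FPKM in HFD and 931 ± 192 FPKM in OP (log2 fold change -3.60, SE 0.38, adjusted p = 0.00117). The gene of a lipase, lipl-5 (WBGene00022642, chromosome V, 385746 to 387740), had 27.1, 15.8 and 8.9 FPKM in the HFD libraries, against 302, 349 and 484 FPKM in the OP libraries (log2 fold change -4.48, SE 0.34, adjusted p = 0.000411). It breaks down stored lipid in lysosomes, and its highest HFD library was below every OP library.

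Yolk genes hold 3 of the 12 places. vit-5 (WBGene00006929, chromosome X, 3403471 to 3408603) had 52.3, 9.16 and 11.1 FPKM in the HFD libraries, against 287, 345 and 194 FPKM in the OP libraries. The gene vit-4 (WBGene00006928, chromosome X, 3558769 to 3563965) had 24.5, 0.872 and 2.91 FPKM in the HFD libraries, against 98.5, 118 and 56.8 FPKM in the OP libraries. The gene vit-3 (WBGene00006927, chromosome X, 3567355 to 3572549) had 26.7, 1.22 and 4.25 FPKM in the HFD libraries, against 92.9, 119 and 54.1 FPKM in the OP libraries. HFD replicate 1 held more of each than the other 2 HFD libraries together, and the groups did not overlap. The log2 fold changes of vit-5, vit-4 and vit-3 were -3.85 (SE 0.55, adjusted p = 0.00391), -3.95 (SE 0.80, adjusted p = 0.0158) and -3.64 (SE 0.77, adjusted p = 0.0184). These 3 genes are close copies of each other and may share reads. The calls of vit-4 and vit-3 ended with OP replicate 1 or 2 left out (highest adjusted p 0.0772).

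The other 4 of the largest decreases were in genes known by sequence name. ZK813.1 (WBGene00022820, chromosome X, 3446311 to 3446935), which holds a chorion-like domain per the table, had 3.5, 1.02 and 0.441 FPKM in the HFD libraries, against 31.8, 40.2 and 53.1 FPKM in the OP libraries. Its neighbour ZK813.3 (WBGene00022822, chromosome X, 3441839 to 3442458) had 6.12, 1.23 and 1.002 FPKM in the HFD libraries, against 32.8, 43.7 and 54.9 FPKM in the OP libraries. C45B2.1 (WBGene00016658, chromosome X, 6086124 to 6086567) had 10.8, 4.14 and 3.93 FPKM in the HFD libraries, against 69.9, 111 and 114 FPKM in the OP libraries. T22F3.11 (WBGene00020700, chromosome V, 3612158 to 3614553), which the table describes as a transporter-like protein, had 5.34, 0.447 and 1.33 FPKM in the HFD libraries, against 21.3, 23.5 and 139.8 FPKM in the OP libraries; OP replicate 3 was several-fold above the other OP libraries. In these 4 genes every HFD library was below every OP library. Adjusted p was 0.000831 for ZK813.1, 0.00172 for ZK813.3, 0.000739 for C45B2.1 and 0.0111 for T22F3.11.

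**Figure D2:**
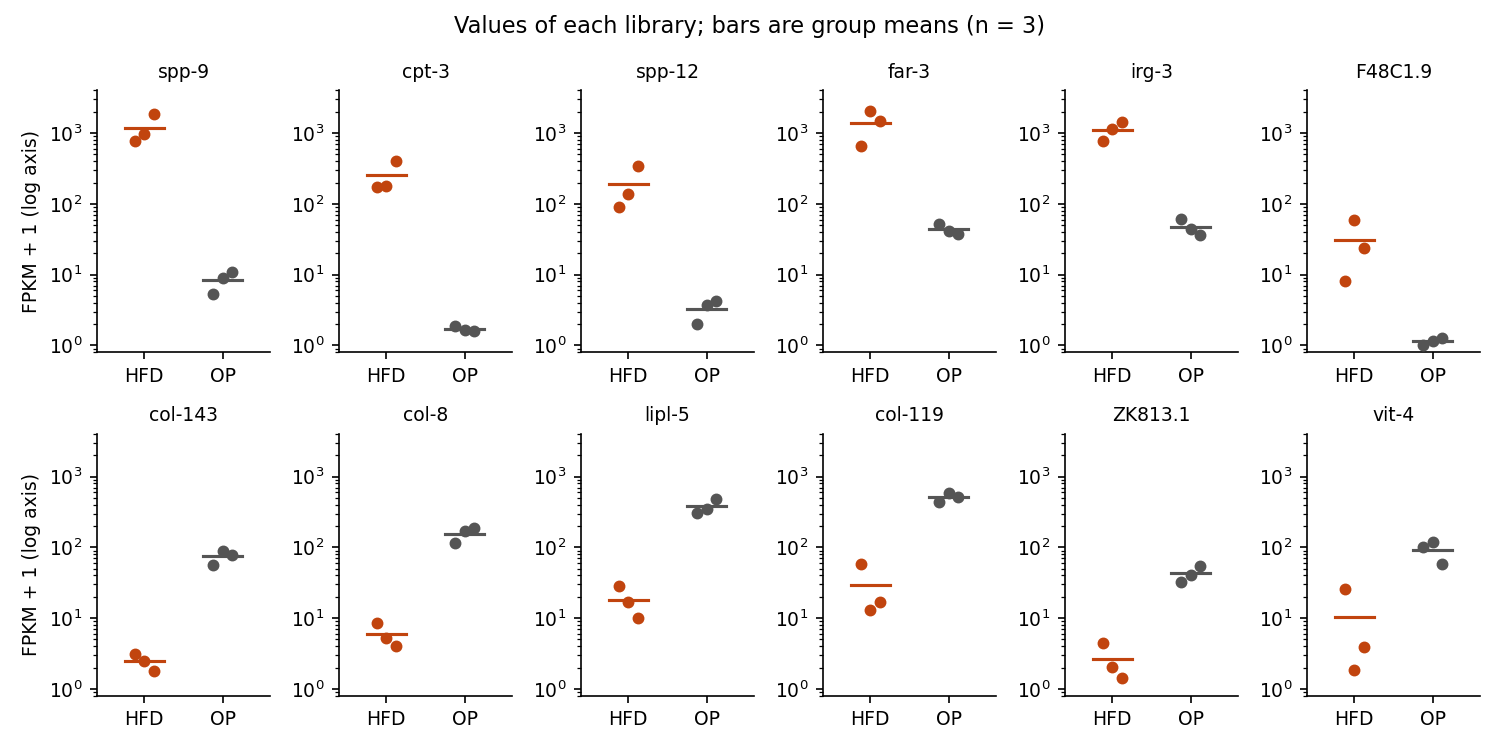
FPKM + 1 on a log axis in each library, for the 6 protein-coding genes with the largest increase (top row) and 6 of those with the largest decrease (bottom row). HFD points stand left of OP points and bars mark group means (n = 3). Only genes whose groups do not overlap were eligible, so the gap between the groups was fixed by the selection.

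By the smallest p, which favours genes that agree closely within each group, gst-4 and F42A10.7 join spp-9, cpt-3 and irg-3 among the 5 first risen genes. The glutathione S-transferase gene gst-4, a common reporter of the oxidative stress response, had 232, 264 and 336 FPKM in the HFD libraries, against 34.6, 34.3 and 25.8 FPKM in the OP libraries (log2 fold change 3.09, SE 0.17, adjusted p = 9.17e-05). F42A10.7 had 302, 346 and 230.0 FPKM in the HFD libraries, against 41.3, 44.6 and 36.8 FPKM in the OP libraries (log2 fold change 2.79, SE 0.16, adjusted p = 9.17e-05). Beside col-143, the fallen genes with the smallest p were gba-4, vap-2, col-101 and ule-1. The glucosylceramidase-like gene gba-4 had 1.98, 1.37 and 1.13 FPKM in the HFD libraries, against 18.3, 22.3 and 24.9 FPKM in the OP libraries (log2 fold change -3.20, SE 0.18, adjusted p = 9.17e-05). The venom-allergen-like gene vap-2 had 1.01, 0.699 and 0.542 FPKM in the HFD libraries, against 10.6, 11.9 and 13.5 FPKM in the OP libraries. In both genes the highest HFD library was several-fold below the lowest OP library. The gene ule-1, whose name stands for uterine lumen expressed, had 0.592, 0.251 and 0.357 FPKM in the HFD libraries, against 8.36, 11.3 and 11.7 FPKM in the OP libraries. All 5 ule genes tested fell, with log2 fold changes of -3.03 for ule-1, -1.58 for ule-2, -3.07 for ule-3, -2.10 for ule-4 and -3.51 for ule-5, a group looked at after the value of ule-1 was seen.

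In absolute amount, fallen genes lost more FPKM than risen genes gained. Summed over genes, the risen genes held 66470.5 FPKM in HFD and 29375.5 FPKM in OP, and the fallen genes 32020.2 FPKM in HFD and 76716.8 FPKM in OP. The 8 largest gains of mean FPKM were in col-144, far-3, far-1, col-10, col-166, spp-9, cpr-1 and irg-3. The collagen gene col-144 had 3191, 4237 and 2759 FPKM in the HFD libraries, against 1979, 1467 and 1490.0 FPKM in the OP libraries. The abundant fatty acid and retinol binding gene far-1 had 3264, 3587 and 2750.0 FPKM in the HFD libraries, against 2034, 1886 and 1681 FPKM in the OP libraries. The gut cysteine protease gene cpr-1 had 1557, 1978 and 1813 FPKM in the HFD libraries, against 513, 617 and 920.2 FPKM in the OP libraries. The lowest HFD library was above the highest OP library in all 3. The 8 largest losses were in C17F4.7 and 7 collagens, col-124, col-139, col-140, col-122, col-129, col-81 and col-106. The uncharacterised gene C17F4.7 had 374, 119 and 156 FPKM in the HFD libraries, against 2540.0, 2244 and 2050.0 FPKM in the OP libraries. The collagen gene col-124 had 273, 104 and 169 FPKM in the HFD libraries, against 1211, 1642 and 1681 FPKM in the OP libraries. In both, every HFD library was far below every OP library (log2 fold change -3.56, SE 0.36, adjusted p = 0.000968 for C17F4.7; log2 fold change -3.14, SE 0.31, adjusted p = 0.000968 for col-124). The calls of col-144, far-1 and col-10 ended with OP replicate 2 left out (highest adjusted p 0.0566).

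The cuticle collagens split into a fallen and a risen group. Of 137 col genes tested, 42 fell, 22 rose and 73 did not pass, against 7.84% fallen and 3.79% risen over all genes, with a median log2 fold change of -0.29. The fallen group summed to 12666, 7696 and 9564 FPKM in the HFD libraries, against 24227, 29644 and 29403 in the OP libraries. The risen group summed to 19540.5, 23146 and 16778 FPKM in HFD, against 10699, 9138 and 8585 in OP. All col genes together held 44639 to 57592 FPKM in HFD and 57412 to 60231 in OP, ranges that touch. Only HFD replicate 1, whose FPKM total was the highest, reached the OP range. Divided by each library's FPKM total, the ranges do not touch. The fallen genes changed by a median of -2.14 on the log2 scale (from -4.92 to -0.55) and the risen ones by 1.03 (0.67 to 2.31). At least 8-fold lower were 15 collagens, which summed to 1861, 619 and 906 FPKM in HFD, against 7936, 11141 and 11411 in OP. Without OP replicate 2, 25 col genes fell and 13 rose.

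Among the fallen were both adult-specific collagens of the list of stage-switch genes. Expression of col-19, made by the adult epidermis, was at 171, 55.9 and 71.4 FPKM in the HFD libraries, against 728, 1001 and 971 FPKM in the OP libraries (log2 fold change -3.32, SE 0.36, adjusted p = 0.0013). The gene col-7 had 14.2, 5.2 and 5.11 FPKM in the HFD libraries, against 81.9, 104 and 98.2 FPKM in the OP libraries (log2 fold change -3.52, SE 0.32, adjusted p = 0.000831). HFD replicate 1 held the most col-19 and col-7 of the HFD libraries, still below OP. The other 19 of the 21 tested stage-switch (heterochronic) genes, which include lin-4 and let-7 pathway members, did not pass, and the list median was 0.24; without OP replicate 1, 4 of them rose. Among risen collagens were the chromosome X neighbours col-167, col-168, col-169 and col-170, with log2 fold changes of 0.84, 0.92, 1.34 and 1.06, and col-166, which had 2120.0, 2409 and 1792 FPKM in the HFD libraries, against 1043, 865 and 836 FPKM in the OP libraries. Of the 20 collagens known from body-shape mutants (dpy, sqt, rol, bli, lon), dpy-3, dpy-2, dpy-8 and dpy-9 rose (0.94, 0.84, 0.77 and 0.77) and rol-1 and bli-6 fell (-0.73 and -0.56); 18 of the 20 had positive changes and the median was 0.20. The genes dpy-2, dpy-3, dpy-8 and dpy-9 are among the furrow collagens, which are assembled together in the cuticle's ring-shaped furrows. They are named as called members of the list, so no change of the furrow set as a whole is read from them. The call of col-168 ended with OP replicate 2 left out (highest adjusted p 0.0687). The call of rol-1 ended with OP replicate 1, 2 or 3 left out (highest adjusted p 0.0874). The calls of dpy-2, dpy-8 and dpy-9 ended with HFD replicate 2 or 3 or OP replicate 2 or 3 left out (highest adjusted p 0.143). The call of bli-6 ended with HFD replicate 2 or OP replicate 1, 2 or 3 left out (highest adjusted p 0.122).

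**Figure D3:**
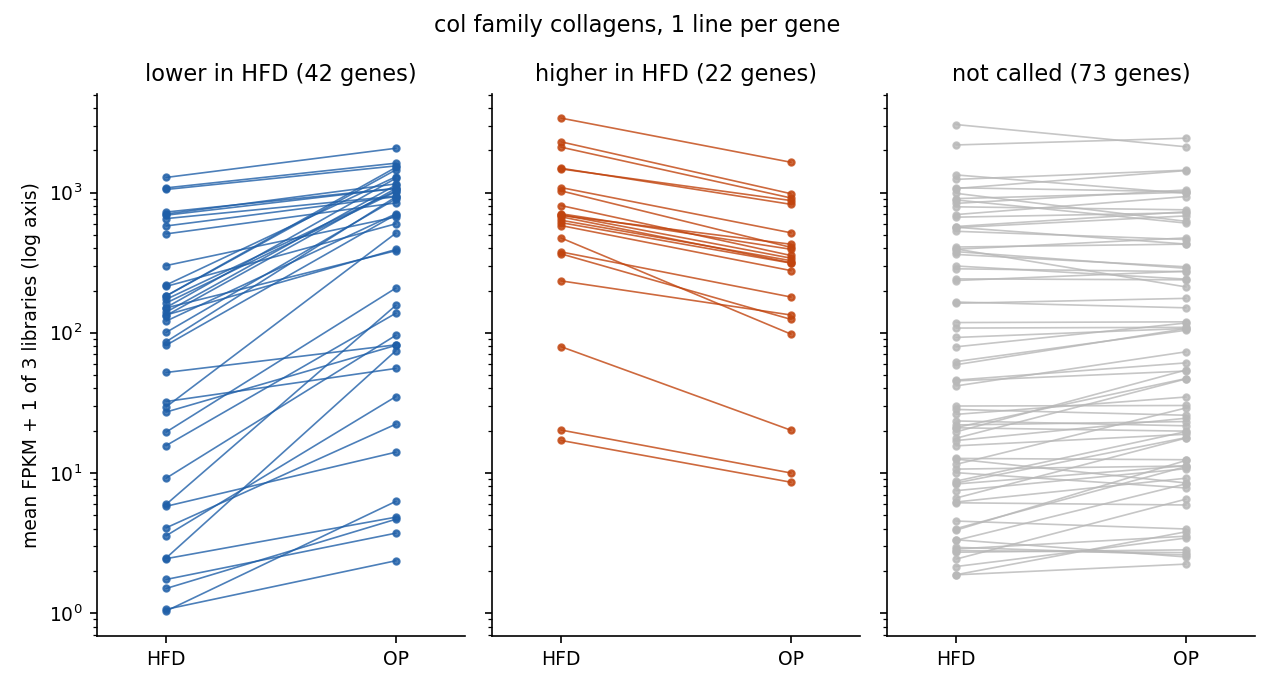
Mean FPKM + 1 (log axis) of each of the 137 col genes in HFD (left end of each line) and OP (right end), in 3 panels for the 42 that fell, the 22 that rose and the 73 that did not pass. Fallen collagens include the steepest lines.

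Genes that process collagens or drive moulting were called about as often as all genes, 12.5% against 11.6%. Of 32 tested, pan-1 and myrf-1 rose (0.61 and 0.70) and mlt-10 and nekl-2 fell (-0.55 and -0.61), with a list median of 0.11; without OP replicate 1, 10 rose. Of 27 cuticlin and cuticlin-like genes, which encode non-collagen cuticle proteins, cutl-10, cutl-3, cutl-16 and cutl-20 rose by 0.71 to 0.96 on the log2 scale, 7 did so without OP replicate 1 and 0 without HFD replicate 2, OP replicate 2 or OP replicate 3. Of 66 hedgehog-related and patched-related genes, which the worm uses in cuticle and epidermis rather than in the signalling known from flies, 4 rose and 5 fell (13.6% called, near the 11.6% of all genes). The risen grd-10 had 139, 175 and 108 FPKM in the HFD libraries, against 45.7, 40 and 32.5 FPKM in the OP libraries, and grd-3, grd-13 and grl-6 changed by 1.23, 1.80 and 1.35. The fallen wrt-8 had 1.96, 1.64 and 1.6 FPKM in the HFD libraries, against 15.6, 9.94 and 10.9 FPKM in the OP libraries (log2 fold change -2.25, SE 0.18, adjusted p = 0.000549). The other 4 fallen genes of this list, grd-2, wrt-4, ptr-2 and ptr-16, changed by -1.09, -1.30, -0.66 and -0.71, and the number that fell was 1 to 9 with a library left out, highest without HFD replicate 1. The call of grd-2 ended with HFD replicate 2 or OP replicate 3 left out (highest adjusted p 0.0565). The call of ptr-2 ended with HFD replicate 2 or OP replicate 2 left out (highest adjusted p 0.0781). The calls of cutl-10, cutl-3 and cutl-16 ended with HFD replicate 2 or OP replicate 2 or 3 left out (highest adjusted p 0.0938). The call of pan-1 ended with HFD replicate 2 or 3 or OP replicate 2 or 3 left out (highest adjusted p 0.109). The call of mlt-10 ended with HFD replicate 2 or 3 or OP replicate 1 or 2 left out (highest adjusted p 0.112). The call of cutl-20 ended with HFD replicate 1 or 2 or OP replicate 2 or 3 left out (highest adjusted p 0.168). The call of myrf-1 ended with HFD replicate 1, 2 or 3 or OP replicate 2 or 3 left out (highest adjusted p 0.149). The call of nekl-2 ended with HFD replicate 1, 2 or 3 or OP replicate 1 or 2 left out (highest adjusted p 0.142). The calls of wrt-4 and ptr-16 ended with HFD replicate 2 or 3 or OP replicate 1, 2 or 3 left out (highest adjusted p 0.129).

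All 6 vitellogenin genes and the yolk receptor gene fell. Besides vit-3, vit-4 and vit-5, vit-2 had 139, 30.4 and 41.5 FPKM in the HFD libraries, against 625, 764 and 553 FPKM in the OP libraries (log2 fold change -3.49, SE 0.47, adjusted p = 0.00295). The gene vit-6, which encodes a yolk protein of another subfamily, had 153, 30.6 and 39.8 FPKM in the HFD libraries, against 609, 742 and 512 FPKM in the OP libraries (log2 fold change -3.40, SE 0.51, adjusted p = 0.00452). The gene vit-1 changed by -3.38 (adjusted p = 0.0126). The gene of the oocyte yolk receptor, rme-2, had 31.3, 24.4 and 26.7 FPKM in the HFD libraries, against 41.5, 66.8 and 69.9 FPKM in the OP libraries (log2 fold change -1.06, SE 0.20, adjusted p = 0.0123). HFD replicate 1 had the most yolk RNA of its group in each vitellogenin gene, and OP replicate 3 the least of its group. Over the 11 vit and rme genes tested, rme standing for receptor-mediated endocytosis, the summed level was 195 to 560.2 in HFD and 1594 to 2362 in OP (FPKM), 7 genes fell and the median was -3.37; without OP replicate 2, 3 fell. In bulk RNA of whole animals, fewer cells of a type and less RNA per cell cannot be told apart, here and in the germline genes that follow. The calls of vit-1 and rme-2 ended with OP replicate 2 left out (highest adjusted p 0.0627). The calls of vit-3 and vit-4 ended with OP replicate 1 or 2 left out (highest adjusted p 0.0772).

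Many genes of the eggshell and of maturing oocytes fell. Of 18 eggshell genes 13 fell and 0 had a positive change (median -0.98, summed level 579.8 to 742 in HFD and 1103 to 1631 in OP FPKM). The permeability barrier genes perm-2 and perm-4 fell most: perm-2 had 66.3, 38.8 and 48.2 FPKM in the HFD libraries, against 177, 212 and 227 FPKM in the OP libraries (log2 fold change -2.01, SE 0.19, adjusted p = 0.000949). The gene perm-4 changed by -1.51. The oocyte surface gene egg-1, needed for sperm entry, had 28.1, 21.6 and 22.2 FPKM in the HFD libraries, against 42.6, 72 and 67.5 FPKM in the OP libraries. The chitin synthase gene chs-1 and the chitin-binding genes cbd-1 and cpg-1 changed by -1.11, -1.14 and -1.17. The count was 6 without OP replicate 2 and 8 without HFD replicate 2. Of 24 oocyte and maternal genes 14 fell (median -0.79, summed level 835 to 964 in HFD and 1106 to 1536 in OP FPKM); 6 did so without OP replicate 2 and 8 without HFD replicate 2 or OP replicate 3. The oocyte maturation regulator oma-2 had 20.6, 18.2 and 16.8 FPKM in the HFD libraries, against 32.9, 60.8 and 51.6 FPKM in the OP libraries (log2 fold change -1.30, SE 0.21, adjusted p = 0.00654). The RNA-binding genes puf-5 and puf-11 changed by -1.45 and -1.11, and the maternal mRNAs of pos-1 and nos-2, used by the early embryo, by -1.10 and -1.50. The germ granule gene meg-1, of the early embryo's germ lineage, had 1.59, 0.557 and 0.975 FPKM in the HFD libraries, against 3.74, 7.5 and 4.95 FPKM in the OP libraries (log2 fold change -1.64, SE 0.26, adjusted p = 0.0061).

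Genes of earlier germ cell stages had medians nearer to 0. Of 28 genes of germline stem cells and germ granules, meg-1, meg-3 and hrde-1 fell (10.7%, beside 7.84% of all genes), and the median was -0.20. Without OP replicate 1, 7 fell. Of 31 meiosis genes 0 passed in limma at the adjusted threshold (1 at an unadjusted p under 0.05, 0 called by voom; median -0.10, 25 negative). Of 38 genes of the cell cycle and DNA replication, the B-type cyclin genes cyb-2.1 and cyb-2.2 fell (-0.72 and -0.72), 35 had negative changes and the median was -0.23; without OP replicate 1, 8 fell. The summed level of these cell cycle genes was 988 to 1105 in HFD and 1019 to 1484 in OP FPKM, with touching ranges, and so it was for the meiosis genes, 398 to 444 in HFD and 372 to 503 in OP FPKM. The calls of meg-3 and hrde-1 ended with HFD replicate 2 or OP replicate 2 or 3 left out (highest adjusted p 0.108). The call of cyb-2.1 ended with HFD replicate 1 or 2 or OP replicate 2 or 3 left out (highest adjusted p 0.142). The call of cyb-2.2 ended with HFD replicate 1, 2 or 3 or OP replicate 2 or 3 left out (highest adjusted p 0.133).

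Most sperm transcripts fell as well. Of 30 major sperm protein (msp) genes, which encode the cytoskeletal protein of the crawling sperm cell and also a signal to the oocyte, 29 fell, with a median of -1.15; their summed level was 2738 to 3059 in HFD and 5316 to 7079.6 in OP FPKM. The gene msp-10 had 20.8, 20.8 and 24.5 FPKM in the HFD libraries, against 59.8, 74.2 and 70.9 FPKM in the OP libraries (log2 fold change -1.59, SE 0.13, adjusted p = 0.000574). The gene msp-78 had 84.1, 88.5 and 78.3 FPKM in the HFD libraries, against 182, 218 and 219 FPKM in the OP libraries (log2 fold change -1.29, SE 0.12, adjusted p = 0.000911). Close copies make single msp values uncertain. Of 17 small sperm-specific genes (ssp, ssq, sss) 12 fell, with a median of -1.02 and summed levels of 533 to 577 in HFD and 921 to 1331 in OP FPKM. Among them ssp-37 had 0.265, 0.225 and 0.426 FPKM in the HFD libraries, against 4.05, 4.27 and 5.81 FPKM in the OP libraries (log2 fold change -2.12, SE 0.18, adjusted p = 0.000634). Of 25 spe and fer genes, known from sterile mutants with defective sperm, spe-12, spe-26, spe-15, spe-6, spe-10 and spe-46 fell (-0.98 to -0.54), 25 had negative changes and the median was -0.40; 1 fell without OP replicate 2 and 3 without HFD replicate 1, HFD replicate 2 or OP replicate 3. The argonaute genes alg-3 and alg-4, which act in spermatogenesis, also fell (-0.75 and -0.83). With hrde-1 they were the 3 fallen of 36 argonaute and small RNA genes (8.33%, near the 7.84% of all genes). The calls of spe-26, spe-15 and alg-3 ended with OP replicate 2 left out (highest adjusted p 0.0694). The call of alg-4 ended with HFD replicate 2 or OP replicate 2 left out (highest adjusted p 0.0831). The call of hrde-1 ended with HFD replicate 2 or OP replicate 2 or 3 left out (highest adjusted p 0.108). The call of spe-6 ended with HFD replicate 1 or 2 or OP replicate 1, 2 or 3 left out (highest adjusted p 0.119). The call of spe-46 ended with HFD replicate 1, 2 or 3 or OP replicate 2 or 3 left out (highest adjusted p 0.152). The call of spe-10 ended with any 1 of the 6 libraries left out (highest adjusted p 0.109).

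In enzyme families with many members known from worm sperm, fallen genes outnumbered risen ones, beside 7.84% fallen and 3.79% risen over all genes. By the Pfam domains named in the table's gene descriptions, 86 domains had at least 20 tested genes. Of 94 genes with the major sperm protein domain 63 fell and 0 rose (median -0.94). Of 77 genes with a protein-tyrosine phosphatase domain 27 fell and 0 rose (median -0.44). The number that fell was 3 with OP replicate 2 left out, 8 with HFD replicate 2 left out and 12 with HFD replicate 1 or OP replicate 3 left out. Some of the fallen phosphatase genes also stand in the eggshell list, so this count is not one of sperm genes alone. Of 240 protein kinase genes 45 fell and 2 rose (median -0.12, 83 positive), and of 62 calcineurin-like phosphoesterase genes 14 fell and 0 rose (median -0.26, 17 positive). The number of fallen kinase genes was 6 with OP replicate 2 left out, 16 with HFD replicate 1 left out, 17 with OP replicate 3 left out and 18 with HFD replicate 2 left out. The number of fallen phosphoesterase genes was 3 with OP replicate 2 left out, 7 with OP replicate 3 left out, 8 with HFD replicate 2 left out and 9 with HFD replicate 1 left out. The phosphatase gene C48B6.4 had 2.3, 2.13 and 2.3 FPKM in the HFD libraries, against 4.61, 4.07 and 4.67 FPKM in the OP libraries. The phosphatase gene F47B3.7 had 3.01, 5.36 and 4.31 FPKM in the HFD libraries, against 8.4, 12.9 and 12.7 FPKM in the OP libraries. The kinase gene gska-3, which acts in sperm, had 8.91, 11 and 12.4 FPKM in the HFD libraries, against 18.6, 20.6 and 23.4 FPKM in the OP libraries (log2 fold change -0.90, SE 0.15, adjusted p = 0.0081). The part of the lower sperm transcripts in these family counts was not tested.

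**Figure D4:**
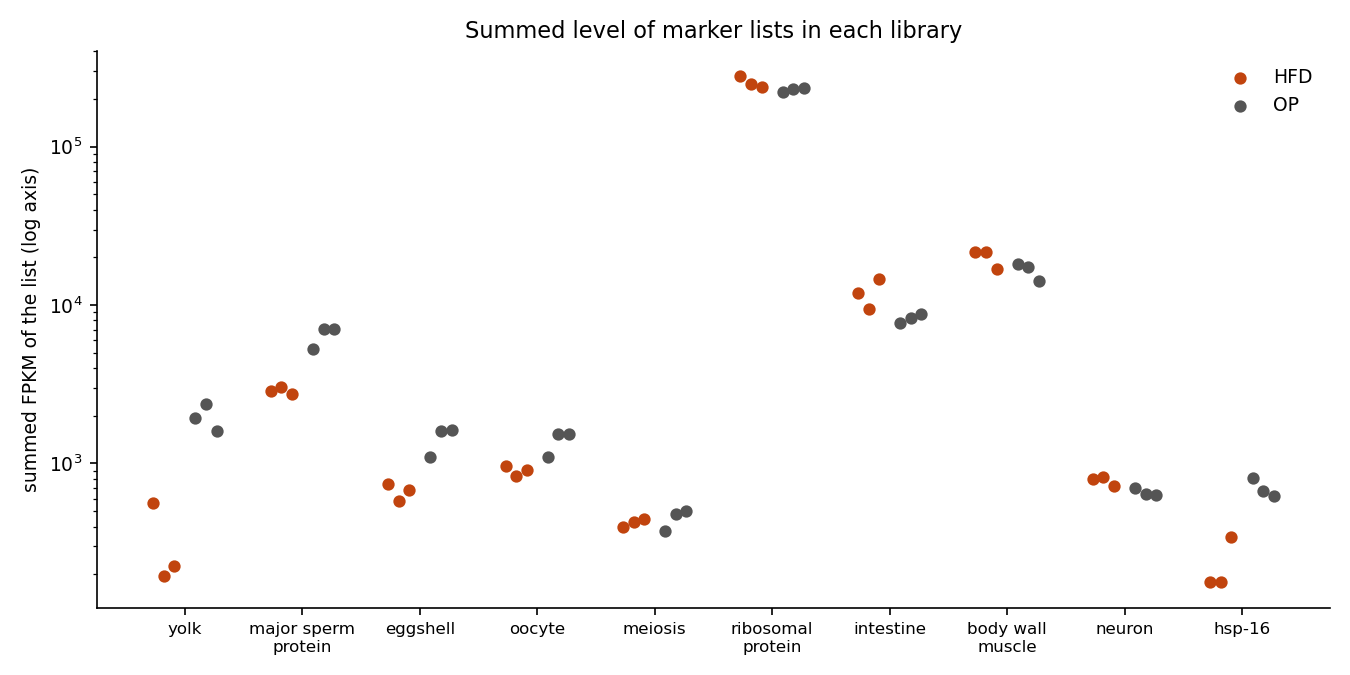
Summed FPKM (log axis) of 10 gene lists in each library, HFD left of OP within each list. The yolk, major sperm protein, eggshell, oocyte and hsp-16 lists are lower in every HFD library than in every OP library. On the deposited values the ribosomal protein, intestine and neuron lists are higher, the intestine list only with cpr-1 included. The meiosis and body wall muscle lists overlap.

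Genes of lipid handling moved in both directions. Of 16 fatty acid and retinol binding (far) and lipid-binding (lbp) genes, 6 rose and 0 fell (median 0.29, summed level 11491 to 14648 in HFD and 7741 to 9140.0 in OP FPKM): far-3, far-1, lbp-1, lbp-8, lbp-6 and lbp-5. The gene lbp-8, of a lysosomal lipid chaperone, had 3.84, 2.4 and 4.37 FPKM in the HFD libraries, against 0.975, 0.935 and 0.77 FPKM in the OP libraries (log2 fold change 1.24, SE 0.20, adjusted p = 0.00655). The gene lbp-1 had 141, 211 and 154 FPKM in the HFD libraries, against 56.1, 55.7 and 72.9 FPKM in the OP libraries (log2 fold change 1.43, SE 0.18, adjusted p = 0.00237). Neither overlapped between the groups. Without OP replicate 2, 3 rose. Of 24 genes of fatty acid synthesis, desaturation and elongation, fat-5 and elo-1 rose and fat-7, elo-2 and elo-8 fell, with 18 negative changes and a median of -0.34. The palmitate desaturase gene fat-5 had 220.3, 254 and 514 FPKM in the HFD libraries, against 34, 35.4 and 72.4 FPKM in the OP libraries (log2 fold change 2.76, SE 0.36, adjusted p = 0.00278). The stearate desaturase gene fat-7 had 14.4, 12.4 and 20.5 FPKM in the HFD libraries, against 57.4, 46 and 68.5 FPKM in the OP libraries (log2 fold change -1.81, SE 0.21, adjusted p = 0.00159). The close relative of fat-7, fat-6, had 165, 182 and 316 FPKM in the HFD libraries, against 371, 334 and 593 FPKM in the OP libraries (log2 fold change -0.98, SE 0.28, adjusted p = 0.0586) and did not pass. The highest HFD library of fat-6 was below the lowest OP library. The elongase gene elo-2 had 92.5, 45 and 66.5 FPKM in the HFD libraries, against 173, 150.1 and 170.1 FPKM in the OP libraries (log2 fold change -1.32, SE 0.23, adjusted p = 0.00849). The fat-storage gene plin-1, of the lipid droplet coat, had 136, 159 and 208 FPKM in the HFD libraries, against 83.1, 88.2 and 91.8 FPKM in the OP libraries (log2 fold change 0.91, SE 0.16, adjusted p = 0.00869). The calls of far-1 and lbp-6 ended with OP replicate 2 left out (highest adjusted p 0.0548). The call of elo-1 ended with OP replicate 2 or 3 left out (highest adjusted p 0.097). The call of lbp-5 ended with HFD replicate 1 or 2 or OP replicate 2 or 3 left out (highest adjusted p 0.0961).

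Lipase genes were called in both directions. Of 16, lipl-5, lips-7 and fil-1, the fasting-induced lipase gene, fell (-4.48, -0.75 and -1.04), lips-10 rose (0.89), and the median was -0.39. The summed level was 167 to 209.8 in HFD and 506 to 697 in OP FPKM. Most of that difference lay in lipl-5, and without it the sums of HFD and OP overlap. The number that fell was 1 without HFD replicate 2 and 5 without HFD replicate 1. Saposin-like genes split: spp-9, spp-12, spp-21 and spp-23 rose and spp-17, spp-5, spp-16, spp-1 and spp-3 fell, of 20 tested. Among them spp-21 had 4.21, 6.98 and 19.4 FPKM in the HFD libraries, against 0.2999, 0.475 and 0.579 FPKM in the OP libraries. The fallen spp-17 had 132, 40.9 and 63.3 FPKM in the HFD libraries, against 387, 440.0 and 351 FPKM in the OP libraries. The call of lips-7 ended with HFD replicate 2 or OP replicate 3 left out (highest adjusted p 0.0562). The call of fil-1 ended with HFD replicate 2 or 3 left out (highest adjusted p 0.0613). The calls of lips-10 and spp-5 ended with HFD replicate 2 or OP replicate 2 or 3 left out (highest adjusted p 0.0755). The call of spp-23 ended with OP replicate 1, 2 or 3 left out (highest adjusted p 0.0761). The call of spp-16 ended with HFD replicate 1 or 2 or OP replicate 2 left out (highest adjusted p 0.0895). The call of spp-1 ended with HFD replicate 2 or 3 or OP replicate 2 or 3 left out (highest adjusted p 0.105). The call of spp-3 ended with HFD replicate 2 or 3 or OP replicate 1, 2 or 3 left out (highest adjusted p 0.119).

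Sphingolipid and ether lipid genes likewise went both ways, with 4 of 29 risen and 3 fallen (median 0.13). The serine palmitoyltransferase gene sptl-3, of the first step of sphingolipid synthesis, had 54, 54.1 and 62.5 FPKM in the HFD libraries, against 28.9, 27.8 and 27.2 FPKM in the OP libraries (log2 fold change 1.0, SE 0.11, adjusted p = 0.00166). The glucosylceramidase-like gene gba-2 had 2.52, 10.3 and 6.26 FPKM in the HFD libraries, against 0.353, 0.311 and 0.455 FPKM in the OP libraries (log2 fold change 2.27, SE 0.37, adjusted p = 0.00631), opposite in direction to its relative gba-4. Also risen were gba-1 and ads-1 (0.65 and 0.48), and also fallen the ceramide glucosyltransferase gene cgt-3 and the ceramidase gene asah-2 (-0.64 and -0.91). Of the ether lipid, sterol and ascaroside genes, the peroxisomal thiolase gene daf-22 had 326, 679 and 501 FPKM in the HFD libraries, against 149.5, 135 and 112 FPKM in the OP libraries (log2 fold change 1.86, SE 0.25, adjusted p = 0.00279). The peroxisomal dehydrogenase gene dhs-28, which acts one step before it in shortening the side chains of ascaroside pheromones, had 395, 661 and 543 FPKM in the HFD libraries, against 217, 209.5 and 176 FPKM in the OP libraries (log2 fold change 1.38, SE 0.19, adjusted p = 0.00314). The peroxisomal transporter gene pmp-2 rose as well (1.41), while 5 other ABC transporter genes, wht-5, wht-6, wht-8, pmp-1 and mrp-3, fell, out of 48 tested. This list had 12.5% of its genes called, near the 11.6% of all genes, and 10.4% fallen, beside 7.84% of all genes. The calls of wht-5 and wht-6 ended with OP replicate 2 left out (highest adjusted p 0.0627). The call of gba-1 ended with HFD replicate 3 or OP replicate 2 left out (highest adjusted p 0.0954). The call of cgt-3 ended with HFD replicate 2 or OP replicate 2 or 3 left out (highest adjusted p 0.0701). The call of pmp-1 ended with HFD replicate 2 or OP replicate 1 or 2 left out (highest adjusted p 0.104). The call of asah-2 ended with HFD replicate 1 or 2 or OP replicate 2 or 3 left out (highest adjusted p 0.125). The call of ads-1 ended with HFD replicate 1 or 3 or OP replicate 1, 2 or 3 left out (highest adjusted p 0.0883). The call of wht-8 ended with HFD replicate 1, 2 or 3 or OP replicate 2 or 3 left out (highest adjusted p 0.194). The call of mrp-3 ended with HFD replicate 1 or 2 or OP replicate 1, 2 or 3 left out (highest adjusted p 0.109).

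The lists of central carbon metabolism held 0 to 2 called genes each, beside 11.6% of all genes called. Of 30 genes of the citrate and glyoxylate cycles and citrate transport 0 passed in limma (3 at an unadjusted p under 0.05, 0 called by voom; median 0.09; summed level 6468 to 6922 in HFD and 5884 to 6445 in OP FPKM). Of 24 genes of glycolysis and gluconeogenesis, pck-3 and pyc-1 fell (-0.63 and -0.46), both of entry into gluconeogenesis, and of 17 genes of glycogen and trehalose gyg-2 fell (-0.96), with 14 negative changes. Propionate breakdown, with 11 genes tested, had 0 called genes in limma (3 at an unadjusted p under 0.05, 2 called by voom). Of 29 genes of amino acid breakdown agxt-1 fell (-0.50). Of 24 genes of the methionine cycle and phosphatidylcholine synthesis the choline kinase gene ckb-4 rose: it had 37, 30.6 and 32.4 FPKM in the HFD libraries, against 18.4, 14.2 and 14.8 FPKM in the OP libraries (log2 fold change 1.03, SE 0.14, adjusted p = 0.00306). The cystathionine gamma-lyase gene cth-1, of cysteine and sulfide metabolism, had 200.1, 150.2 and 139 FPKM in the HFD libraries, against 291, 344 and 312 FPKM in the OP libraries (log2 fold change -0.96, SE 0.15, adjusted p = 0.00611). By Pfam domain, acyl-CoA dehydrogenases had 6 risen and 3 fallen genes of 20. The calls of pck-3 and pyc-1 ended with HFD replicate 1 or 2 or OP replicate 2 or 3 left out (highest adjusted p 0.151). The call of agxt-1 ended with HFD replicate 2 or 3 or OP replicate 2 or 3 left out (highest adjusted p 0.119). The call of gyg-2 ended with HFD replicate 1, 2 or 3 or OP replicate 2 or 3 left out (highest adjusted p 0.124).

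**Figure D5:**
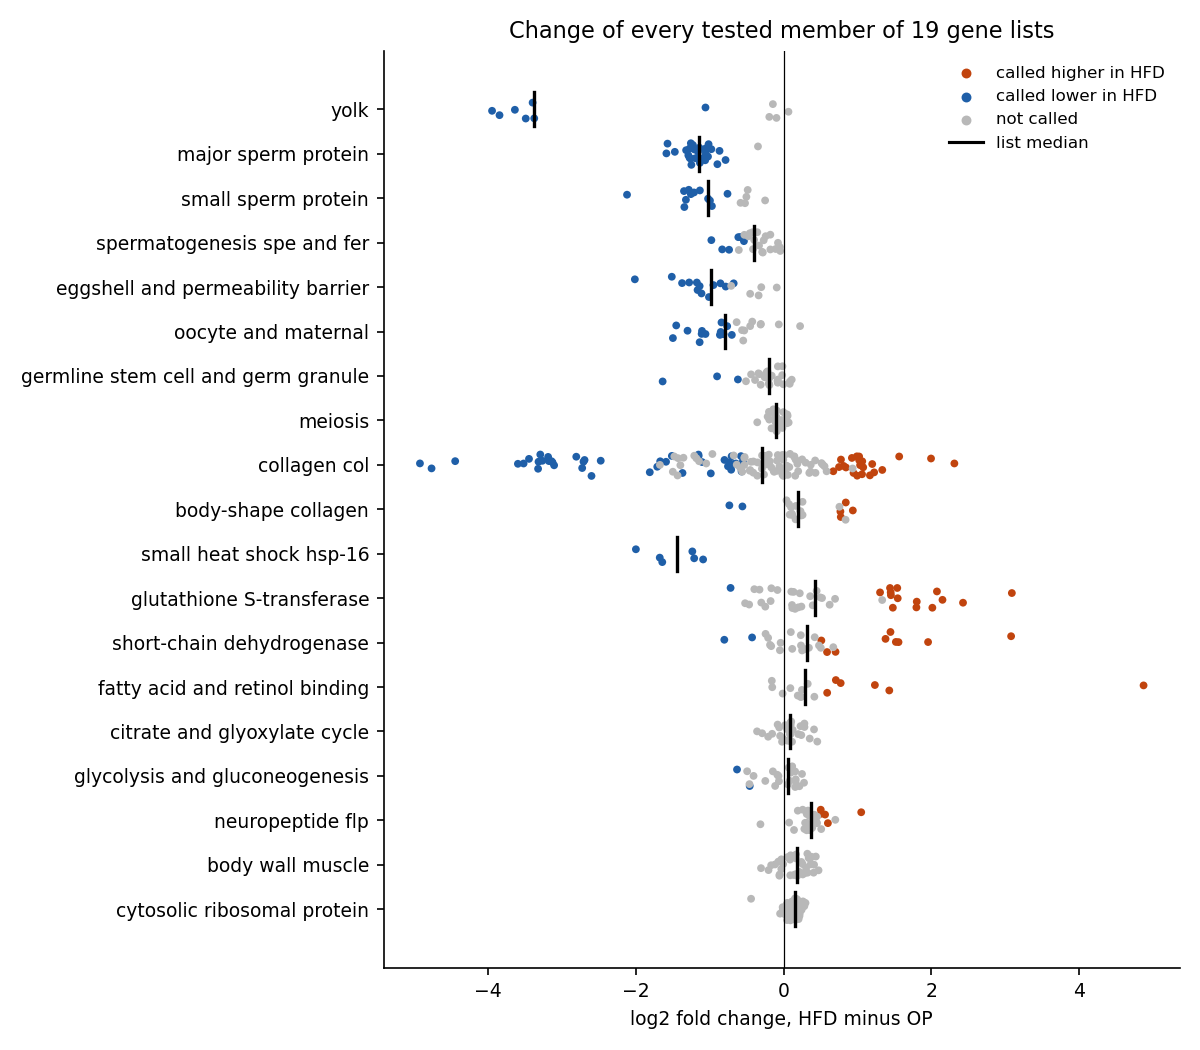
Log2 fold change (HFD minus OP) of every tested member of 19 gene lists, 1 point per gene, with called genes coloured and the list median as a black bar. The yolk, sperm, eggshell, oocyte and hsp-16 lists have medians left of 0, the glutathione S-transferase list has most of its called genes on the right, and the collagen list has called genes on both sides.

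Many genes of glutathione conjugation and antioxidant defence rose. Of 40 glutathione S-transferase genes 14 rose and gst-28 fell, with 30 positive changes and a median of 0.42; the summed level was 2435 to 2509.7 in HFD and 1144 to 1387 in OP FPKM, with no overlap. After gst-4, gst-33 had 28.1, 39.9 and 47.4 FPKM in the HFD libraries, against 6.52, 5.39 and 6.69 FPKM in the OP libraries (log2 fold change 2.43, SE 0.19, adjusted p = 0.000496). The gene gst-39 had 90.4, 102 and 146 FPKM in the HFD libraries, against 28.7, 27.1 and 21.1 FPKM in the OP libraries, and gst-5 had 189, 266 and 181 FPKM in the HFD libraries, against 71.4, 77.1 and 65.5 FPKM in the OP libraries. The number of risen genes stayed within 1.5 times of 14 with each library left out. The glutathione peroxidase gene gpx-1 had 206, 382 and 325 FPKM in the HFD libraries, against 45, 38.2 and 33.5 FPKM in the OP libraries (log2 fold change 2.90, SE 0.22, adjusted p = 0.000423). The peroxiredoxin gene prdx-2 changed by 0.95 and the cytosolic superoxide dismutase gene sod-1 by 0.70. With ctl-2, gpx-2 and sod-3 they were the 6 risen of 25 glutathione and peroxide genes, 0 of which fell; 3 rose without OP replicate 1 or OP replicate 2. The mitochondrial superoxide dismutase gene sod-3, a target of the transcription factor DAF-16, had 6.1, 7.93 and 6.43 FPKM in the HFD libraries, against 3.98, 3.59 and 4.77 FPKM in the OP libraries (log2 fold change 0.61, SE 0.16, adjusted p = 0.039). The cadmium-responsive genes cdr-4 and cdr-1 rose (1.77 and 1.55): cdr-4 had 123, 158 and 188 FPKM in the HFD libraries, against 54.8, 35.6 and 45.2 FPKM in the OP libraries. With the haem transporter gene hrg-4, the ferritin gene ftn-1 and cdr-2 they were the 5 risen of 21 metal and iron genes. The call of gst-28 ended with HFD replicate 2 or OP replicate 2 or 3 left out (highest adjusted p 0.0812). The call of ctl-2 ended with HFD replicate 3 or OP replicate 1 or 2 left out (highest adjusted p 0.0768). The call of gpx-2 ended with OP replicate 1, 2 or 3 left out (highest adjusted p 0.088). The call of hrg-4 ended with HFD replicate 1 or 3 or OP replicate 2 or 3 left out (highest adjusted p 0.116). The call of ftn-1 ended with HFD replicate 2 or OP replicate 1, 2 or 3 left out (highest adjusted p 0.12). The call of cdr-2 ended with HFD replicate 1 or 2 or OP replicate 2 or 3 left out (highest adjusted p 0.142). The call of sod-3 ended with any 1 of the 6 libraries left out (highest adjusted p 0.163).

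Short-chain dehydrogenases, oxidoreductases of lipids and other small molecules, had more risen than fallen genes, beside 3.79% risen and 7.84% fallen over all genes. By Pfam domain 16 of 42 rose and 1 fell (median 0.41), and of the 28 named dhs genes 9 rose and dhs-14 and dhs-25 fell (median 0.31); 4 dhs genes rose without OP replicate 2. The gene dhs-9 had 261, 604 and 489.7 FPKM in the HFD libraries, against 57.5, 48.6 and 43.4 FPKM in the OP libraries (log2 fold change 3.08, SE 0.28, adjusted p = 0.000811). The gene dhs-18 had 109, 299 and 213 FPKM in the HFD libraries, against 57.2, 45 and 44.1 FPKM in the OP libraries. The gene dhs-23 had 7.17, 12.5 and 12.3 FPKM in the HFD libraries, against 3.61, 2.27 and 3.11 FPKM in the OP libraries. The dehydrogenase genes F20G2.1 and F20G2.2, neighbours, changed by 1.26 and 0.82, and sdz-8 by 2.77. In this domain the number of risen genes was 8 with OP replicate 2 left out and 10 with OP replicate 3 left out. Cytochrome P450 genes went both ways, with 5 risen and 6 fallen of 48 (10.4% and 12.5%). Beside cyp-13B1, cyp-33B1, cyp-14A5, cyp-14A4 and cyp-36A1 rose (1.59, 1.11, 1.05 and 0.78). The fallen P450 genes were cyp-37B1, cyp-34A8, cyp-34A2, cyp-31A5, cyp-31A2 and cyp-37A1 (-2.71, -0.88, -0.84, -0.81, -0.72 and -0.52). Of 57 UDP-glucuronosyltransferase genes 7 rose and 3 fell (12.3% and 5.26%), with ugt-35, ugt-1, ugt-16, ugt-15, ugt-33, ugt-37 and ugt-48 higher by 0.81 to 3.71 on the log2 scale and ugt-30, ugt-63 and ugt-64 lower (-0.99, -0.51 and -0.47). The list medians of both families lay near 0 (0.02 and -0.01), where the sign depended on how libraries were scaled. The calls of cyp-33B1 and ugt-48 ended with OP replicate 2 left out (highest adjusted p 0.0664). The call of cyp-37B1 ended with HFD replicate 2 left out (highest adjusted p 0.0587). The call of ugt-30 ended with HFD replicate 2 or OP replicate 1 or 3 left out (highest adjusted p 0.0799). The call of dhs-25 ended with HFD replicate 2 or 3 or OP replicate 1 or 2 left out (highest adjusted p 0.137). The calls of cyp-36A1, cyp-31A5 and ugt-64 ended with HFD replicate 1 or 2 or OP replicate 2 or 3 left out (highest adjusted p 0.137). The call of cyp-31A2 ended with HFD replicate 2 or 3 or OP replicate 2 or 3 left out (highest adjusted p 0.124). The call of ugt-37 ended with HFD replicate 2 or OP replicate 1, 2 or 3 left out (highest adjusted p 0.0875). The call of cyp-34A2 ended with HFD replicate 1, 2 or 3 or OP replicate 1 or 3 left out (highest adjusted p 0.124). The calls of dhs-14, cyp-37A1 and ugt-63 ended with any 1 of the 6 libraries left out (highest adjusted p 0.158).

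Digestive and immune genes did not move as one. Their counts stand beside 3.79% risen and 7.84% fallen over all genes tested. Of 21 gut aspartyl and cysteine protease genes cpr-1, asp-14, asp-12 and cpr-5 rose and asp-17 fell. Of 12 lysozyme genes ilys-2 and lys-4 rose and ilys-5 fell (-1.54): ilys-2 had 10.7, 25.9 and 22.1 FPKM in the HFD libraries, against 0.285, 1.61 and 2.11 FPKM in the OP libraries (log2 fold change 3.15, SE 0.39, adjusted p = 0.00229). Of 107 C-type lectin genes 10 rose and 16 fell (9.35% and 15%, median -0.10). Risen were clec-3, clec-163 and clec-143, with log2 fold changes of 3.41, 2.62 and 2.37. Fallen were clec-230, clec-229 and clec-247, with -2.74, -2.11 and -1.70. Of the fallen lectins clec-230 had 3.38, 3.19 and 2.71 FPKM in the HFD libraries, against 35.4, 22.2 and 23.2 FPKM in the OP libraries. Without OP replicate 2, 10 lectin genes fell. Infection response genes with CUB-like domains also split. The gene irg-5 had 101, 99.9 and 210.5 FPKM in the HFD libraries, against 19.6, 11.6 and 16.3 FPKM in the OP libraries (log2 fold change 2.97, SE 0.30, adjusted p = 0.000968). The gene dod-24 had 176, 205 and 324 FPKM in the HFD libraries, against 42.9, 24.3 and 13.3 FPKM in the OP libraries (log2 fold change 3.19, SE 0.38, adjusted p = 0.00194). While dod-17 changed by 1.59, dod-22 had 1.81, 1.9 and 2.41 FPKM in the HFD libraries, against 10.2, 12.8 and 8.49 FPKM in the OP libraries (log2 fold change -1.91, SE 0.18, adjusted p = 0.000854). By domain, 9 CUB-like genes rose and 6 fell of 37 (24.3% and 16.2%). With a library left out, 5 to 8 of them rose and 2 to 8 fell. The bZIP transcription factor gene zip-2, of the pathogen response, had 341, 381 and 349.9 FPKM in the HFD libraries, against 223, 182 and 180.4 FPKM in the OP libraries (log2 fold change 0.88, SE 0.12, adjusted p = 0.00367). The list of epidermal and other antimicrobial peptide genes had 23 of 27 positive changes and a median of 0.40, with fipr-1, fipr-2 and abf-6 risen and fipr-13 fallen; 9 rose without HFD replicate 3 and 0 without OP replicate 2. The pals genes, of the response to intracellular pathogens, had 0 called of 12 in limma (1 at an unadjusted p under 0.05, 0 called by voom). The calls of ilys-5 and fipr-1 ended with OP replicate 1 or 2 left out (highest adjusted p 0.0752). The call of fipr-2 ended with HFD replicate 2 or OP replicate 2 left out (highest adjusted p 0.0881). The call of asp-12 ended with HFD replicate 2 or 3 or OP replicate 1 or 2 left out (highest adjusted p 0.0813). The calls of asp-17 and abf-6 ended with HFD replicate 1 or 2 or OP replicate 2 or 3 left out (highest adjusted p 0.137). The call of cpr-5 ended with HFD replicate 2 or 3 or OP replicate 1, 2 or 3 left out (highest adjusted p 0.129).

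All 6 small heat shock genes of the hsp-16 family fell. The gene hsp-16.48 had 7.6, 9.14 and 14.4 FPKM in the HFD libraries, against 57, 44.6 and 31.6 FPKM in the OP libraries (log2 fold change -2.0, SE 0.26, adjusted p = 0.0027). The gene hsp-16.41 had 67.5, 69.7 and 136 FPKM in the HFD libraries, against 323, 269 and 247 FPKM in the OP libraries (log2 fold change -1.68, SE 0.26, adjusted p = 0.00516). The gene hsp-16.2 had 80.2, 77.8 and 158 FPKM in the HFD libraries, against 371, 295 and 279 FPKM in the OP libraries (log2 fold change -1.64, SE 0.26, adjusted p = 0.00593). No HFD library reached the lowest OP library in any of these. The others, hsp-16.1, hsp-16.11 and hsp-16.49, changed by -1.09, -1.21 and -1.24; hsp-16.1 and hsp-16.11, and hsp-16.48 and hsp-16.49, are duplicates in one cluster, so their reads could be split. The family summed to 177 to 342 in HFD and 626 to 814 in OP FPKM, and all 6 passed with each library left out. Of the other 18 heat shock genes, the inducible hsp-70 had 23.3, 17.9 and 44.9 FPKM in the HFD libraries, against 164, 106 and 71.9 FPKM in the OP libraries (log2 fold change -1.98, SE 0.36, adjusted p = 0.0104). The genes F44E5.4 and F44E5.5, of the same family, changed by -1.27 and -1.38. The small heat shock gene hsp-12.3 went the other way: it had 17.3, 25 and 36.2 FPKM in the HFD libraries, against 6.33, 5.57 and 7.33 FPKM in the OP libraries (log2 fold change 1.82, SE 0.24, adjusted p = 0.00279). The remaining fallen genes were hsp-43 and hsp-110 (-0.51 and -0.75). Of 32 genes of the unfolded protein responses of the endoplasmic reticulum and mitochondria 0 passed in limma (4 at an unadjusted p under 0.05, 2 called by voom; median 0.09). The calls of F44E5.4 and F44E5.5 ended with OP replicate 2 left out (highest adjusted p 0.0551). The call of hsp-43 ended with HFD replicate 1 or 3 or OP replicate 2 or 3 left out (highest adjusted p 0.13). The call of hsp-110 ended with HFD replicate 1, 2 or 3 or OP replicate 1 or 2 left out (highest adjusted p 0.16).

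Several genes of osmolyte synthesis and transport rose. The inositol transporter gene hmit-1.2 had 25.3, 23 and 16 FPKM in the HFD libraries, against 4.13, 5.31 and 5.92 FPKM in the OP libraries (log2 fold change 1.86, SE 0.20, adjusted p = 0.00116). Both glycerol-3-phosphate dehydrogenase genes of glycerol production, the worm's osmolyte under salt stress, were higher: gpdh-2 had 197, 329 and 341 FPKM in the HFD libraries, against 79.1, 74.1 and 80.8 FPKM in the OP libraries (log2 fold change 1.83, SE 0.20, adjusted p = 0.00135). The gene gpdh-1 had 35.6, 22 and 23 FPKM in the HFD libraries, against 9.3, 12.5 and 10.1 FPKM in the OP libraries (log2 fold change 1.24, SE 0.20, adjusted p = 0.00629). Of the aquaporin genes aqp-2 and aqp-8 rose (0.58 and 0.85) and aqp-1 fell (-2.08). In all 5 of the 22 sugar and osmolyte transport genes rose and 1 fell, 3 rose without HFD replicate 2 or OP replicate 2, and the list median was 0.09. The proton pump of acid compartments, the vacuolar ATPase, had 18 of 20 subunit genes with positive changes (median 0.33), of which vha-14 and vha-15 rose by 0.38 and 0.44. Both together are 10% of the subunit genes, near the 11.6% called over all genes. The call of aqp-8 ended with HFD replicate 2 or OP replicate 2 left out (highest adjusted p 0.0812). The call of aqp-2 ended with HFD replicate 2 or OP replicate 2 or 3 left out (highest adjusted p 0.0924). The call of aqp-1 ended with HFD replicate 1, 2 or 3 or OP replicate 2 left out (highest adjusted p 0.0809). The calls of vha-14 and vha-15 ended with any 1 of the 6 libraries left out (highest adjusted p 0.156).

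Few transcription factor genes were called. Of the 675 genes to which the table gives a transcription factor family, 437 were tested, and 14 rose and 11 fell, together 5.72% against 11.6% of all genes, a difference given here as a description without a test. Nuclear hormone receptors, a family much enlarged in worms, had 8 risen and 3 fallen of 160. The receptor gene nhr-8, which acts in cholesterol balance and the response to xenobiotics, had 7.11, 5.09 and 6.48 FPKM in the HFD libraries, against 16, 13.5 and 15.1 FPKM in the OP libraries (log2 fold change -1.14, SE 0.15, adjusted p = 0.00279). The receptor gene nhr-11 had 7.79, 10.8 and 11.1 FPKM in the HFD libraries, against 2.54, 2.26 and 2.16 FPKM in the OP libraries (log2 fold change 1.70, SE 0.17, adjusted p = 0.000949). The genes nhr-270, nhr-155 and nhr-142 changed by 1.06, 1.34 and 1.03, whereas nhr-74 changed by -1.30. The zinc finger and BTB genes F10B5.3 and F47D12.7 changed by 1.34 and -1.10. The homeobox gene ceh-60, which promotes yolk gene expression, had 6.55, 4.76 and 6.24 FPKM in the HFD libraries, against 10.9, 10.1 and 9.74 FPKM in the OP libraries (log2 fold change -0.73, SE 0.15, adjusted p = 0.016). The gene mab-3, a DM-domain gene that represses yolk genes in males, had 7.999, 7.6 and 7.43 FPKM in the HFD libraries, against 4.95, 4.06 and 4.53 FPKM in the OP libraries (log2 fold change 0.66, SE 0.13, adjusted p = 0.0155). The central insulin-pathway factor gene daf-16 had 39.6, 34.7 and 42.7 FPKM in the HFD libraries, against 38.8, 37.2 and 42.1 FPKM in the OP libraries (log2 fold change -0.02, SE 0.12, adjusted p = 0.953). The insulin receptor gene daf-2 had 5.26, 5.29 and 7.92 FPKM in the HFD libraries, against 6.03, 5.94 and 7.85 FPKM in the OP libraries (log2 fold change -0.10, SE 0.19, adjusted p = 0.792). The 95% interval of the log2 fold change was -0.30 to 0.27 for daf-16 and -0.52 to 0.32 for daf-2. Among 46 fat regulators and nutrient signalling genes plin-1, dgat-2 and nhr-13 rose and the phosphatase gene daf-18 fell. Of the 25 insulin-like peptide genes ins-30 rose (log2 fold change 1.02, SE 0.16, adjusted p = 0.00508). The calls of ceh-60 and mab-3 ended with HFD replicate 2 or OP replicate 2 left out (highest adjusted p 0.0831). The call of dgat-2 ended with HFD replicate 1 or 3 or OP replicate 2 or 3 left out (highest adjusted p 0.102). The call of daf-18 ended with HFD replicate 1 or 2 or OP replicate 2 or 3 left out (highest adjusted p 0.115). The call of nhr-13 ended with HFD replicate 2 or 3 or OP replicate 1, 2 or 3 left out (highest adjusted p 0.133).

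Most neuropeptide genes had small positive changes. Of 30 flp genes, which encode FMRFamide-like peptides, 29 had positive changes, with a median of 0.37, and flp-8, flp-22, flp-19, flp-13 and flp-32 rose. Of 74 nlp and related peptide genes 67 had positive changes, with a median of 0.32, and nlp-29, nlp-80, nlp-71, nlp-18 and pdf-1 rose. These medians stood beside one of 0.01 over all genes, and they ran from 0.29 to 0.44 and from 0.25 to 0.41 over all alternatives. The counts were small and depended on single libraries: 1 or 2 flp genes rose without any 1 library but HFD replicate 3, and 13 nlp genes rose without HFD replicate 3, against 0 or 1 without HFD replicate 1, HFD replicate 2, OP replicate 2 or OP replicate 3. The flp gene flp-8 had 87.8, 113 and 63.1 FPKM in the HFD libraries, against 36.6, 48.8 and 38 FPKM in the OP libraries (log2 fold change 1.05, SE 0.21, adjusted p = 0.0152). The gene nlp-29, an antimicrobial peptide gene of the epidermis, had 26, 50.6 and 16.3 FPKM in the HFD libraries, against 10.4, 12 and 9.44 FPKM in the OP libraries (log2 fold change 1.32, SE 0.34, adjusted p = 0.0384). Of 28 genes of neuron function 26 had positive changes (median 0.32) and egl-3 and unc-25 rose (0.46 and 0.60). The 2 with negative changes were both fallen, tbh-1 and tdc-1, the enzymes that make octopamine by way of tyramine. The gene tbh-1 had 1.75, 0.72 and 1.25 FPKM in the HFD libraries, against 8.11, 10.6 and 8.9 FPKM in the OP libraries (log2 fold change -2.21, SE 0.20, adjusted p = 0.000824). The gene tdc-1 had 10.8, 9.78 and 9.1 FPKM in the HFD libraries, against 14.5, 21.3 and 24.2 FPKM in the OP libraries (log2 fold change -0.92, SE 0.19, adjusted p = 0.0154). The call of flp-8 ended with OP replicate 1 left out (highest adjusted p 0.0503). The call of tdc-1 ended with HFD replicate 2 or OP replicate 2 left out (highest adjusted p 0.0755). The calls of flp-19, pdf-1, egl-3 and unc-25 ended with HFD replicate 1 or 2 or OP replicate 2 or 3 left out (highest adjusted p 0.113). The call of nlp-29 ended with HFD replicate 1 or OP replicate 1, 2 or 3 left out (highest adjusted p 0.102). The calls of flp-22, flp-13, nlp-80 and nlp-18 ended with HFD replicate 1 or 2 or OP replicate 1, 2 or 3 left out (highest adjusted p 0.115). The call of nlp-71 ended with HFD replicate 1, 2 or 3 or OP replicate 2 or 3 left out (highest adjusted p 0.139). The call of flp-32 ended with any 1 of the 6 libraries left out (highest adjusted p 0.134).

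Body wall muscle genes had 0 called of 38 in limma (8 at an unadjusted p under 0.05, 1 called by voom; median 0.18, summed level 16858 to 21594 in HFD and 14275 to 18308 in OP FPKM). Of 22 pharynx genes tnt-4 and marg-1 rose (median 0.34). Of 29 intestine genes cpr-1 and ftn-1 rose (median 0.14, summed level 9482 to 14557 in HFD and 7703 to 8799 in OP FPKM). These sums did not overlap, but without the abundant cpr-1 HFD replicate 2 lies below OP replicates 2 and 3. Of 13 genes of coelomocytes and the excretory cell aqp-8, cup-4 and lgc-26 rose. Housekeeping groups had small medians and 0 calls in limma. Unadjusted p was under 0.05 in 3 cytosolic ribosomal protein genes, 3 mitochondrial ribosomal protein genes, 0 nuclear respiratory chain genes, 2 genes of the mitochondrial genome, 2 proteasome genes and 0 tRNA synthetase genes, and voom called 1 gene of the mitochondrial genome. Cytosolic ribosomal protein genes had 77 of 81 positive changes with a median of 0.16, mitochondrial ribosomal protein genes 65 of 71 with 0.17, nuclear genes of the respiratory chain 35 of 42 with 0.05 (-0.03 with libraries rescaled to the same sum), those of the mitochondrial genome 10 of 10 with 0.27, proteasome genes 26 of 33 with 0.12, and tRNA synthetase genes 17 of 32 with 0.02, which became -0.05 with libraries rescaled to the same sum and -0.02 with voom. With libraries rescaled to the same sum, the scaling that gave the lowest medians, the median of all genes was -0.061, and those of cytosolic ribosomal protein, mitochondrial ribosomal protein and mitochondrial genome genes were 0.075, 0.095 and 0.19. Of 54 histone genes his-32, his-24, hil-2 and hil-3 rose and htas-1, his-38 and his-70 fell (13% called, near the 11.6% of all genes). The linker histone gene his-24 had 115, 141 and 129 FPKM in the HFD libraries, against 56.2, 50.8 and 78.8 FPKM in the OP libraries (log2 fold change 1.06, SE 0.17, adjusted p = 0.0064). The sperm histone gene htas-1 had 14.2, 12.1 and 13.7 FPKM in the HFD libraries, against 23.6, 29.9 and 28.5 FPKM in the OP libraries (log2 fold change -0.98, SE 0.14, adjusted p = 0.00338). The call of his-38 ended with HFD replicate 2 left out (highest adjusted p 0.0618). The calls of aqp-8 and hil-2 ended with HFD replicate 2 or OP replicate 2 left out (highest adjusted p 0.0812). The call of tnt-4 ended with HFD replicate 1 or 2 or OP replicate 3 left out (highest adjusted p 0.0733). The call of his-70 ended with HFD replicate 2 or OP replicate 2 or 3 left out (highest adjusted p 0.0737). The call of ftn-1 ended with HFD replicate 2 or OP replicate 1, 2 or 3 left out (highest adjusted p 0.12). The calls of marg-1 and cup-4 ended with HFD replicate 1 or 2 or OP replicate 1, 2 or 3 left out (highest adjusted p 0.0986). The call of hil-3 ended with HFD replicate 1, 2 or 3 or OP replicate 1 or 2 left out (highest adjusted p 0.125). The call of lgc-26 ended with any 1 of the 6 libraries left out (highest adjusted p 0.113).

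Called genes lay on all 6 nuclear chromosomes. Chromosome IV had the highest share of fallen genes, 278 of 2531 (11%), and chromosome V the highest share of risen genes, 159 of 2761 (5.76%). On the X chromosome, which is kept largely silent in germ cells, 88 of 1937 genes rose (4.54%) and 105 fell (5.42%), with a median of 0.06; on the autosomes 453 of 12314 rose (3.68%) and 1013 fell (8.23%), with a median of 0.0022. In 13 places at least 4 neighbouring tested protein-coding genes were called in the same direction, 3 of them risen and 10 fallen, 57 genes in all. The longest was a run of 6 fallen genes on chromosome V from 14067866 to 14087188 (D1086.17, D1086.11, D1086.6, D1086.10, D1086.7 and D1086.18), with log2 fold changes of -3.02 to -0.57. On the X chromosome from 3441839 to 3446935 ZK813.3, ZK813.2, ZK813.7 and ZK813.1 fell by 4.15 to 3.57 on the log2 scale, and from 11879110 to 11884042 Y62H9A.3, Y62H9A.4, Y62H9A.5 and ule-5 by 3.51 to 3.06. Among the risen runs were F49C12.1 to F49C12.5 on chromosome IV from 9294899 to 9307165 (1.31 to 3.49) and W08E12.6, W08E12.4, W08E12.3 and W08E12.2 on the same chromosome from 3298600 to 3306639 (1.09 to 1.58). Of the Y62H9A genes, Y62H9A.5 had 11.8, 2.69 and 2.81 FPKM in the HFD libraries, against 47.5, 63.7 and 82.4 FPKM in the OP libraries. Of the W08E12 genes, W08E12.4 had 8.001, 5.81 and 5.08 FPKM in the HFD libraries, against 3.47, 1.39 and 2.07 FPKM in the OP libraries. Close copies within a run can share reads. The call of D1086.18 ended with OP replicate 2 or 3 left out (highest adjusted p 0.062). The calls of W08E12.6 and W08E12.4 ended with HFD replicate 1 or 2 or OP replicate 2 or 3 left out (highest adjusted p 0.115). The call of D1086.17 ended with HFD replicate 1, 2 or 3 or OP replicate 2 or 3 left out (highest adjusted p 0.164).

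Most calls were in protein-coding genes, with 522 risen and 1085 fallen of 13625. Of 385 pseudogenes 7 rose and 20 fell (7.01% called, beside 11.6% of all genes). Calls among small RNA loci rested on very few reads. Of 98 piRNA loci of a median length of 21 bases 4 rose and 5 fell; 21ur-9873 had 1 read in each HFD library and 0 in each OP library, and 21ur-12989 had 0 in each HFD library and 1 in each OP library. A locus this short gains over 2 FPKM from 1 read, so no level is read from these calls. The same holds for the microRNA loci mir-8187, mir-235 and mir-8191, 3 fallen of 9 tested, named after their values were seen, whose HFD means were at most 0.541 FPKM. In all, 18 called genes had under 10 reads in every library. The call of mir-235 ended with HFD replicate 2 or 3 or OP replicate 1 or 3 left out (highest adjusted p 0.0845). The call of mir-8191 ended with HFD replicate 2 or 3 or OP replicate 1, 2 or 3 left out (highest adjusted p 0.132).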

How the data were processed

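RNA of whole worms was sequenced in 3 HFD and 3 OP libraries, after a chloroform extraction of total RNA and an NEBNext Ultra II library preparation, per the labels' protocols. The authors deposited 1 table of FPKM values per gene, with gene name, position, length, biotype, description and transcription factor family, per the file headers. The submitters' processing notes name WBcel235 as genome build. The sources used here name no aligner, counter or strand setting; overlapping or antisense genes and close copies can therefore share reads. The values were left as deposited. In every library 100% of the products of FPKM and gene length were multiples of 1 read (tolerance 0.01 of a read), which gave the reads per library; 3 reads on a gene of 1 kilobase correspond to 0.135 to 0.179 FPKM. Libraries of a group differed beyond counting noise, the chi-square per gene being 17.5 to 44.5. Ensembl release 115 of this build holds 46924 of the identifiers, 99.82% at an equal position.

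FPKM values are not counts, so log2(FPKM + 1) was tested in limma 3.58.1 (R 4.3.3) with its trend option, on the 6 libraries (4 residual degrees of freedom), two-sided, with Benjamini-Hochberg adjustment over 14268 genes and a threshold of 0.05. Log2 fold changes are HFD minus OP and understate the change of low genes. A further 32666 named genes below the filter and 52 loci without a name were left out, and there were 0 unused columns of values. Replicate numbers are shared between the groups but same-numbered libraries did not deviate together throughout (r = 0.075, -0.037 and 0.165), so they were not treated as pairs. The second principal component did order the replicate numbers alike in both groups, and a fit with a replicate block is given as an alternative.

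The genes compared and the 75 gene lists were chosen with earlier results of these data known. Lists are described by counts and medians. The text names in either direction the 12 largest fold changes of coding genes that do not overlap and reach a mean of 5 FPKM in 1 group, the 8 largest changes of mean FPKM, the 5 lowest p values, members with the lowest p and called members of each list described (in lists with many called genes some of them, the rest being counted), up to 4 non-coding genes in each direction, and 9 genes of fat and stress biology; other genes are said to be named after their values were seen, or illustrate a domain family or a run of neighbours. Promoter sequences were not analysed here, so a planned motif search was not run.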

Additional observations from a re-analysis of the deposited data

How the results depend on the processing

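With other pseudocounts (0.1 and 0.5), a stricter filter, other scalings, voom on the recovered reads, no variance trend or robust moderation, 1387 to 1771 genes were called, against 1659. Without the filter, which lets in more genes of few reads, 920 of 22606 genes were called. What lowered this number was not tested. With library weights 3107 were called, 39.8% of them higher in HFD, and with a minimum of 2-fold 674, 38.6% of them higher. The share of called genes that were higher was 32.6%, and it became 40.01% with median-centred libraries, 24.9% with libraries rescaled to the same sum and 28.6% with voom. The median log2 fold change of all genes was 0.072, -0.061 and -0.032 in the same order. With 1 library left out, 682 to 1724 genes were called, fewest without OP replicate 2, with 32.2% to 36.1% higher and a median of -0.0017 to 0.012. The replicate block gave 1782 calls, 595 higher and 1187 lower, with 0 risen vacuolar ATPase genes and 2 risen body-shape collagens, against 2 and 4; HFD replicate 2 correlated best with OP replicate 1, not with its own number.

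All 297 called genes named in the text kept their sign in each of the 17 alternatives that tested them, and 158 passed in each of these; 33 of them were not tested in every alternative, the stricter filter leaving them out. The log2 fold change of daf-16, which did not pass, was 0.0457 with median-centred libraries and 0.0136 with library weights; with 1 library left out it ran from -0.0824 to 0.0631. For daf-2 it ran from -0.269 to 0.0146. The cause was not tested.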

Other observations

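Of the 52 loci without a gene name, 30 passed the filter, and 2 were called when added to the genes tested, a choice made after seeing the data. The locus on chromosome I from 6144584 to 6145435 had 6.14, 6.27 and 7.81 FPKM in the HFD libraries, against 9.89, 13.3 and 12.9 FPKM in the OP libraries (limma log2 fold change -0.75, adjusted p = 0.0187). The locus on chromosome IV from 7053518 to 7054304 had 11.7, 10.4 and 8.59 FPKM in the HFD libraries, against 14.8, 21.4 and 20.9 FPKM in the OP libraries (-0.83, adjusted p = 0.019). Both were lower in every HFD library than in every OP library.

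The gene lists together held 177 of the 541 risen genes (32.7%) and 229 of the 1118 fallen genes (20.5%), beside 2434 of the 14268 genes tested (17.1%), so most of the fallen genes stand in no list described here.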
